A study of Mus musculus with 20 samples.

Results

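The 8 genes described here encode subunits of the transcription factor AP-1: Fos, Fosb and Fosl2 of the Fos family, Jun, Junb and Jund of the Jun family, and the related basic leucine zipper genes Atf3 and Maff. They were found by their symbols among the 14793 genes of the deposited table, and all 8 were present. The symbols were chosen by a reading of between-group differences that had already been made on these same joints. The group differences of these genes are therefore given as a description, with no p-value for a member, and support nothing. The same holds for any threshold or false discovery rate that a member passes in these comparisons.

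The joints came from 12-week-old male C57BL/6Nci mice, all of which, controls included, had surgical destabilization of the medial meniscus (DMM) of the right knee, a model of osteoarthritis after injury. Control joints (CTRL) received needle insertion alone in weeks 3 and 5 after surgery. The remaining groups were injected with mesenchymal stromal cells from adipose tissue (MSC) in the same weeks. These cells were non-activated in the MSC group, had been stimulated for 2 h with the TLR3 agonist pIC in the TLR group, and for 2 h with the STING agonist cGAMP in the STING group, each agonist at 10 µg/mL. All injected cells came from a single pool of donor mice. Whole knees with cartilage, synovium, capsule and adjacent bone were taken 8 weeks after surgery according to the methods of the study, while its results place the tissue 24 h after injection, so the interval from the last injection to the measurement is not settled. RNA sequencing was done for 5 of 10 mice per group, 20 joints in all. Each joint had from 27955496 to 52529973 reads on the genes of the table, with a median of 42283681 in the MSC group and of 31917015 in the STING group. All 10 cartilage, all 10 synovial fibroblast and all 10 bone markers were measured, and the summed erythroid markers of marrow, at 915823 or more normalized counts, exceeded the summed bone markers in every joint.

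AP-1 is a dimer. Jun proteins pair with each other or with Fos proteins, Fos proteins need a Jun partner, and the pairs bind a short DNA element in many promoters and enhancers. Fos, Fosb, Junb, Atf3 and, in many cells, Jun are immediate-early genes, transcribed within minutes of growth factors, cytokines, stress or mechanical load, whereas Jund is expressed more steadily. In joint tissue AP-1 is known for driving matrix-degrading enzymes such as collagenases and stromelysin in synovial fibroblasts and chondrocytes, and for its part in osteoblast and osteoclast development. Immediate-early transcripts are short-lived.

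The promoters of 4 of the genes are shown because each holds an element through which serum, calcium or cyclic AMP signals are known to act on immediate-early genes. Windows of 500 bases upstream of each start site were searched on both strands in the GRCm39 genome with GENCODE gene models for the CArG box, which binds the serum response factor, for the cyclic AMP response element TGACGTCA (CRE), and for the AP-1 element TGANTCA with C or G at N. Each line gives 300 bases, 5′ to 3′ in the direction of the gene, with the matched element in capitals.

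Fos promoter, chr12:85520355-85520654, plus strand, CArG box: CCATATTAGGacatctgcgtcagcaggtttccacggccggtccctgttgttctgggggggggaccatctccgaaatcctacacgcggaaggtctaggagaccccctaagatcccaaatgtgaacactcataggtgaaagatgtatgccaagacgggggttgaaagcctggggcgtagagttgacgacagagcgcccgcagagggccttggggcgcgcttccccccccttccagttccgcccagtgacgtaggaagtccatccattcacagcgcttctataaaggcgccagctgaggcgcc

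Fosb promoter, chr7:19043977-19044276, minus strand, CArG box: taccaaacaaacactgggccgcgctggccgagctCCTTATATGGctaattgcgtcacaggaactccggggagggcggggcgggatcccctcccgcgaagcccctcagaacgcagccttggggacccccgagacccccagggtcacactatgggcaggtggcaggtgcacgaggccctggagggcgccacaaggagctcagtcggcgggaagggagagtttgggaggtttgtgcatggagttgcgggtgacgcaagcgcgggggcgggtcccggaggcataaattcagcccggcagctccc

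Jund promoter, chr8:71151299-71151598, plus strand, CRE: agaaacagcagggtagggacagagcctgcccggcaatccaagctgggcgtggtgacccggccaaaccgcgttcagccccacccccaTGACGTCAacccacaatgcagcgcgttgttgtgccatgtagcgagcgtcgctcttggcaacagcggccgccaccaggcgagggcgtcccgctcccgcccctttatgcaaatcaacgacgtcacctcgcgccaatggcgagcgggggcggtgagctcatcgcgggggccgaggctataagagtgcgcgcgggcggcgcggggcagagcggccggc

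Maff promoter, chr15:79231420-79231719, plus strand, CRE: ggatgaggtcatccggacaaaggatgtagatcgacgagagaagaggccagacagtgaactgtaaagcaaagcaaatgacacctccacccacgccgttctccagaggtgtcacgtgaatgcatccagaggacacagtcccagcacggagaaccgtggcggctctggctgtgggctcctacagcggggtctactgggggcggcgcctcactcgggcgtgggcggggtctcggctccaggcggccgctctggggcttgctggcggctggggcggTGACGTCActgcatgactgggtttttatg

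The CArG box lay at positions -303 to -294 from the start site of Fos and at -266 to -257 from that of Fosb. The CRE lay at -214 to -207 in Jund and at -29 to -22 in Maff. Across 14769 promoters with a 500-base window, 2.55% held a CArG box, 2.15% held the CRE and 6.66% held the AP-1 element, which was found in 0 of the 8 windows. A match is only a run of letters, and these windows leave out enhancers and more distant elements. Only exact matches were counted, so variants of these elements that differ by a base were missed.

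Fos, the founding member of the Fos family, had normalized counts of 797, 1348, 1512, 1132 and 665 in the 5 control joints, with a mean of 1091 ± 358 (SD, n = 5). The MSC joints held 665, 1704, 1609.8, 900.0 and 737, a mean of 1123 ± 496. In the TLR joints the values were 364, 892, 969, 254 and 729, with a mean of 642 ± 318. The STING joints had the lowest values, at 539, 346, 538, 237 and 248 and a mean of 382 ± 149. Every STING joint lay below every control and every MSC joint, whereas the TLR joints spread from the STING range into the control range. The log2 fold change of Fos was -1.54 (SE 0.38) for STING against control and -1.53 for STING against MSC. The TLR joints had a log2 fold change of -0.88 against control and of -0.87 against MSC, and non-activated MSC had one of -0.00 against control.

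Fosb, a Fos paralogue with the same partners, had 228, 162, 215, 286 and 149.7 normalized counts in control joints, a mean of 208 ± 54.8. The MSC joints held 236, 2531, 795, 182 and 241, a mean of 797 ± 1001, and replicate 2 alone carried 63.5% of that sum. TLR joints had 69.1, 199.7, 351, 111 and 393 (mean 225 ± 143). STING joints had 126, 95.4, 133, 83.7 and 72.9 (mean 102 ± 26.4), and each was below every control and every MSC joint. In the MSC group 3 joints therefore sat within the control range, and the high mean of that group came from replicates 2 and 3. The log2 fold change was -1.02 (SE 0.59) for STING against control, -2.20 for STING against MSC and 1.19 for MSC against control. Without MSC replicate 2 it was -1.59 for STING against MSC and 0.57 for MSC against control.

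Fosl2, which encodes Fra-2, had its highest values in the MSC joints, at 4032, 6065, 7515, 5786 and 4176 (mean 5515 ± 1446). Control joints held 3327, 3223, 4050.3, 5012 and 2324 (mean 3587 ± 1005). TLR joints held 3546, 3763, 3716, 3563 and 4816 (mean 3881 ± 531), and STING joints 3449, 2647, 3549, 2909 and 3049.9 (mean 3120.5 ± 376). All 5 STING joints were below all 5 MSC joints, but MSC and control overlapped, as did MSC and TLR. The log2 fold change was 0.63 (SE 0.18) for MSC against control, -0.48 for TLR against MSC and -0.79 for STING against MSC. Fosl1, the remaining Fos family gene, was looked for but was not among the measured genes.

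Junb encodes a Jun protein that is induced with Fos. It had 2791, 3564, 4155, 5126 and 2354 normalized counts in control joints and 2638, 4957, 4368, 2993 and 2789 in MSC joints. TLR joints held 2066, 2998, 2961, 2008 and 3887, and STING joints 2149, 1827, 2556, 2336 and 1824. The STING joints lay below all MSC joints and, except for replicate 3 at 2556, below all control joints. The log2 fold change was -0.71 (SE 0.22) for STING against control and -0.70 for STING against MSC, while MSC and control differed by -0.01. Junb overlaps Prdx2 on the opposite strand, and the counting is not stated to use strand. Without strand, reads from the stretch that the pair shares cannot be told apart.

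Jun, which encodes c-Jun, the classic partner of Fos, showed overlapping groups throughout. Its normalized counts were from 1789 to 3223 in control (mean 2554 ± 570.4), from 1456 to 2826 in MSC (mean 2109.7 ± 589.7), from 1529.7 to 2939 in TLR (mean 2351 ± 674) and from 1321 to 2484 in STING joints (mean 1918 ± 426). Its largest log2 fold change of the 6 comparisons was -0.41 (SE 0.23), for STING against control. Jund, the more steadily expressed Jun gene, was the member with the lowest coefficient of variation in control joints (17.2%), with values from 867 to 1353 and a mean of 1126 ± 193. Its means were 1192 ± 279 in MSC, 1223 ± 295 in TLR and 909 ± 127 in STING joints, and its log2 fold changes lay between -0.41 and 0.10. Fosl2, Jun, Jund, Atf3 and Maff each overlap at least 1 noncoding gene on the opposite strand, and Fos and Fosb overlap none.

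Atf3, a stress-induced gene whose protein can pair with Jun proteins or repress by itself, had 302, 261, 364, 531 and 213 normalized counts in control joints. MSC joints held 377, 1099, 565, 318 and 735, and TLR joints 206, 388, 524, 243 and 517. STING joints were close together at 288, 349, 406, 282 and 376. MSC joints had the highest mean, 619 ± 315 against 334 ± 123 in control, a log2 fold change of 0.81 (SE 0.32), but 2 of the MSC values lay within the control range. For STING against MSC the log2 fold change was -0.73, and for STING against control it was 0.08. Atf3 was thus the only member with a higher fitted level in STING than in control joints, by less than its SE.

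Maff, a small Maf gene whose protein has no activation domain of its own, had 118, 111, 114, 275 and 104 normalized counts in control joints. MSC joints held 149, 317, 126, 117 and 227. TLR joints held 86.0, 159, 206, 102 and 263, and STING joints 121, 165, 119.9, 99.95 and 40.3. All groups overlapped. The log2 fold changes lay between -0.80 (SE 0.39), for STING against MSC, and 0.37, for MSC against control.

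**Figure D1:**
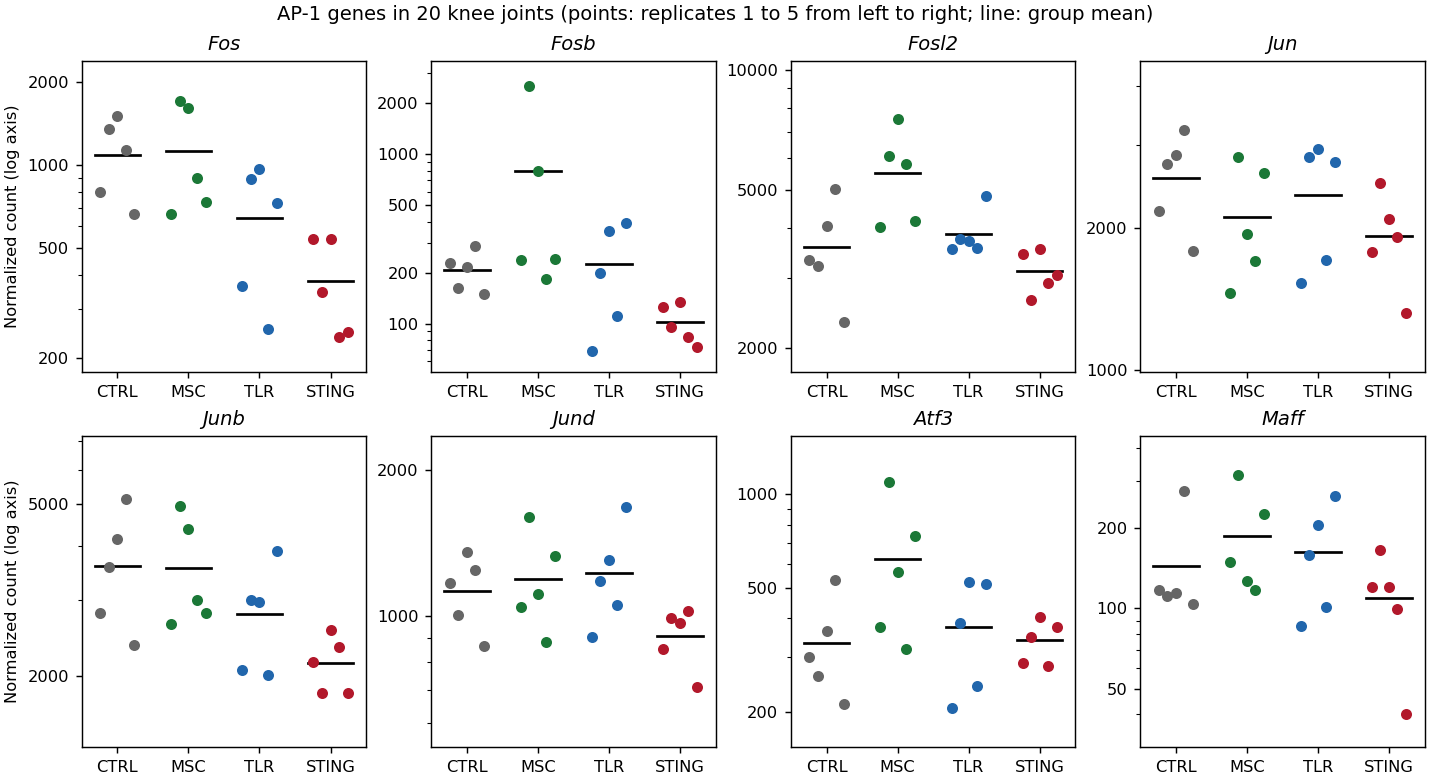
Normalized counts of the 8 AP-1 genes on log axes, with a point for each joint (replicates 1 to 5 from left to right in each of the 4 groups) and a line at each group mean. The 5 STING points of Fos and Fosb lie below all control and MSC points, and MSC replicate 2 stands alone at 2531 for Fosb.

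The 6 comparisons are summarised by a threshold of a difference of at least 2-fold together with an unadjusted p of at most 0.05, from limma on log2(normalized count + 1). The study words its own criterion in more than one way, joining fold change and p by "or" in places and using adjusted p-values in others. These counts rest on the contrasts that chose the genes, so nothing is read from them. Against control, 0 of the 8 genes passed for MSC, where 0.73% of all genes did, and 0 for TLR, where 0.331% did. In MSC against control Fosb passed once MSC replicate 1 (1.43), 4 (1.52) or 5 (1.42) was left out, and Atf3 passed without replicate 4, whereas in TLR against control Fos passed without control replicate 5, TLR replicate 2 or TLR replicate 3. For STING against control 1 passed, Fos, beside 1.78% of all genes that passed as lower (264 genes, of 305 in either direction). For TLR against MSC 1 passed, Fosb, beside 0.0744% of all genes that passed as lower (11 genes, of 59 in either direction). That call was lost without MSC replicate 2 (log2 fold change -0.71), MSC replicate 3 (-1.12), TLR replicate 1 (-0.97) or TLR replicate 4 (-1.14), and Fos joined Fosb without MSC replicate 1, TLR replicate 2 or TLR replicate 3. For STING against MSC 2 passed, Fos and Fosb, beside 0.264% of all genes that passed as lower (39 genes, of 75 in either direction). For STING against TLR 0 passed, and 0.622% of all genes did.

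Counted by an unadjusted p of at most 0.05 alone, 2 members (Fosl2 and Atf3) were higher in MSC than in control joints, where 5.64% of all genes were higher and 2.91% lower. In TLR against control 1 member (Fos) was lower, beside 0.906% lower and 2.68% higher among all genes. In STING against control 2 members (Fos and Junb) were lower, beside 5.69% lower and 6.54% higher. In TLR against MSC 3 members were lower, beside 1.99% lower and 1.89% higher, and in STING against MSC 6 were lower, all but Jun and Maff, beside 2.17% lower and 2.77% higher. In STING against TLR 1 member (Jund) was lower, beside 1.78% lower and 0.784% higher.

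At a false discovery rate (FDR) of at most 0.05 limma called 0 members in every comparison, as did edgeR, and limma called 0.00676% of all genes in MSC against control and 0% in the other comparisons. DESeq2 on the recovered reads called Fos in STING against control, where it called 0.576% of the genes it adjusted, and Fos, Fosb and Fosl2 in STING against MSC, where it called 0.2%. Calls of members rest on the contrasts that chose the genes, so they support nothing. Groups did not overlap for 2 members in STING against control, Fos and Fosb. Both were lower, beside 1.24% of all genes that were lower without overlap. In STING against MSC groups did not overlap for 4 members, Fos, Fosb, Fosl2 and Junb. All were lower, beside 0.548% of all genes that were lower without overlap. In the other 4 comparisons 0 members had groups without overlap. Among all genes 1.11% did in either direction in MSC against control and 0.825% in TLR against control. In TLR against MSC 0.581% did, and in STING against TLR 1.35%, also in either direction.

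The median log2 fold change over the 8 genes was 0.22 in MSC against control, -0.01 in TLR against control and -0.42 in STING against control, where the medians over all genes were -0.04, -0.01 and 0.01. It was -0.41 in TLR against MSC, -0.76 in STING against MSC and -0.38 in STING against TLR, where all genes had 0.03, 0.02 and 0.02. All 8 genes had a negative log2 fold change in STING against MSC and in STING against TLR, where 44.5% and 44.7% of all genes did. In STING against control 7 of 8 did, beside 48.3% of all genes, and in TLR against MSC 6 did, beside 42.6%. In MSC against control 3 of 8 were negative, beside 57.7% of all genes, and in TLR against control 4 were, beside 52.1%. Comparisons with a group in common share its 5 joints, so these medians are not separate pieces of evidence.

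**Figure D2:**
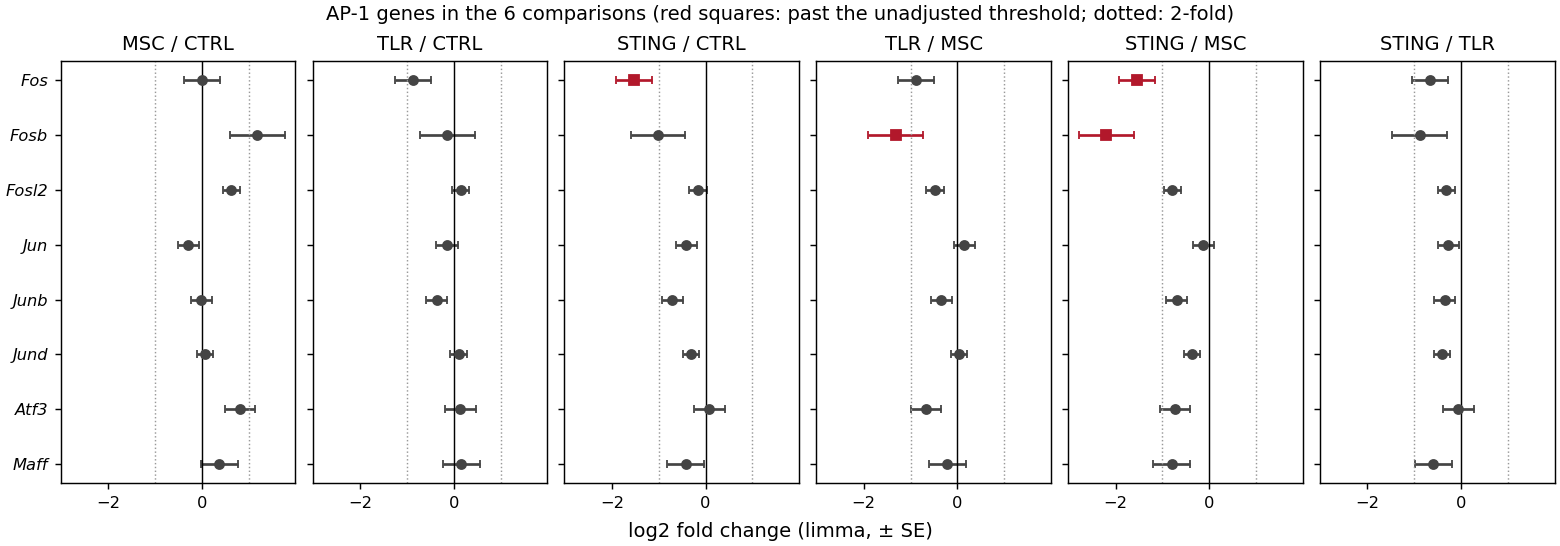
log2 fold changes (points) with their SE (bars) of the 8 AP-1 genes in the 6 comparisons, from limma over 20 joints, with dotted lines at a 2-fold difference and red squares where a gene passed the unadjusted threshold. Fos in STING against control, Fosb in TLR against MSC, and both in STING against MSC are the 4 squares, and they lie on the side of lower values.

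Levels can be compared between genes only per length of transcript. Over all 20 joints Junb was the most abundant member, at 1668 normalized counts per kb, followed by Jun at 700.2, Jund at 667, Fosl2 at 577, Fos at 383, Atf3 at 210.3, Fosb at 88.1 and Maff at 77.1. The order of Jun and Jund turned around between groups, with 662 per kb for Jun and 715 for Jund in MSC joints and 801 and 675 in control joints. Fos gave 10.8% of the summed per-kb level of the 8 genes in control, 10.1% in MSC, 7.22% in TLR and 5.62% in STING joints. Junb gave from 36.6% in TLR to 41.5% in control joints.

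Summed per kb, the 3 Fos family genes reached 1085 ± 284 in control, 1533 ± 629 in MSC, 919 ± 224 in TLR and 655 ± 124 in STING joints (mean ± SD, n = 5). The 3 Jun family genes reached 3465 ± 869, 3339 ± 827, 3009.7 ± 781 and 2329 ± 304 in the same order. The ratio of the Fos to the Jun family was 0.312 ± 0.0233 in control, 0.307 ± 0.0190 in TLR and 0.283 ± 0.0526 in STING joints. In MSC joints it was 0.448 ± 0.0975, with values from 0.320 to 0.555, and the control joints lay between 0.289 and 0.338. The MSC and control ranges of this ratio overlapped in part, and the STING ratios overlapped those of control. The STING sums had lower means in both families, but their ranges overlapped control too, with 551 to 799 against 688 to 1353 for the Fos family and 1850.1 to 2649 against 2382 to 4589 for the Jun family.

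**Figure D3:**
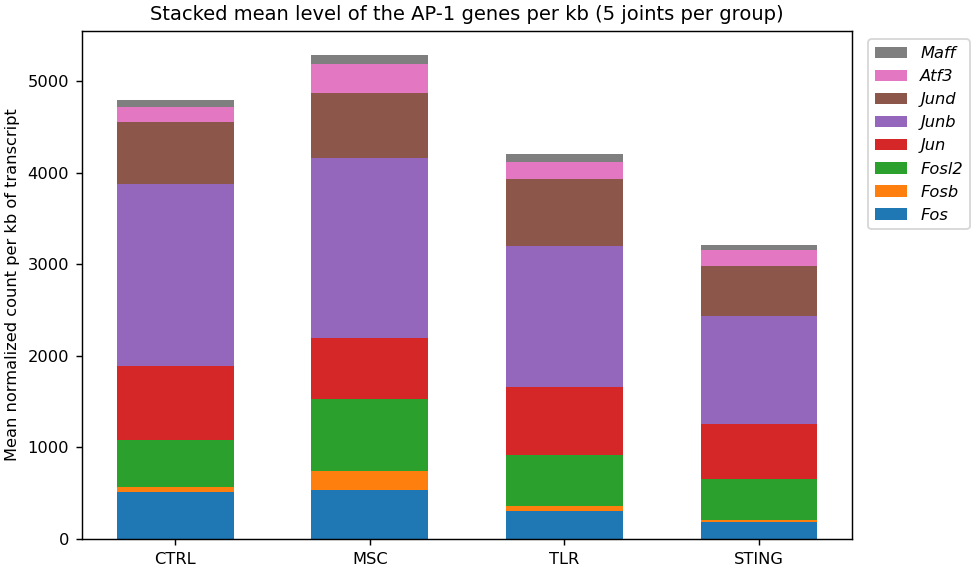
Mean normalized count per kb of transcript of each AP-1 gene, stacked by group, with 5 joints per group and no error bars (the SDs of the Fos and Jun family sums are given in the text). Junb forms the widest band in each group, and the Fos band narrows from 516 in control to 181 in STING joints.

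Joints of the same group also differed together. After the group means were subtracted, Pearson's r between members over the 20 joints lay between 0.28 (Fosl2 with Maff) and 0.84 (Jun with Maff) across the 28 pairs, with a median of 0.70. By permutation within groups (100000 permutations, two-sided, Benjamini-Hochberg over 28 pairs), 22 pairs had an adjusted p of at most 0.05 for Pearson's r and 23 for Spearman's rho. Leaving out the 2 joints farthest from the median of the first gene of a pair gave a median r of 0.65 and a range from 0.07 to 0.86. The same 20 libraries and size factors underlie every pair, and most members correlated as much or more with many genes outside the family, as the ranks given with the most similar genes show, so nothing particular to the 8 genes is read from these counts. Fosl2 went with Junb (r = 0.83) and less with Jun (0.38) and Jund (0.39), while Jun, Jund, Atf3 and Maff had r values from 0.70 to 0.84 with each other. Fos was closest among members to Junb (0.78) and Fosb (0.72).

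Likeness to single genes of the whole table, by the same r over 20 joints, separated the members further. The 3 genes most like Fos were Egr1 (0.85), Junb (0.78) and Tub (0.78), and Egr1 is itself an immediate-early gene with CArG boxes in its promoter. For Fosb they were Tnip2 (0.88), Crtc3 (0.85) and Tub (0.83), and for Fosl2 they were Egr3 (0.87), Mcl1 (0.87) and Tmem132a (0.86). Junb was most like Tmem132a (0.91), Gja1 (0.90) and Hhat (0.90). Jun was most like Sobp (0.94), Mrfap1 (0.93) and Slc30a4 (0.93), and Jund most like Saysd1 (0.94), Bag5 (0.93) and Ptms (0.93). Atf3 was most like Aff4 (0.92), Smad7 (0.90) and Fam3a (0.90), and Maff most like Yap1 (0.93), Hectd2 (0.93) and Maoa (0.93). Among all other genes Junb had rank 2 for Fos and rank 5 for Fosl2, and the 3 nearest genes of every member but Fos were outside the family. Most members ranked far lower for each other. Over the 56 ranks of 1 member for another among 14792 genes the median was 859, the range was 2 to 6079, and 7 were at most 100. Even Jun and Maff, the pair with the highest r, had ranks 339 and 346 for each other.

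The whole knee holds cartilage, synovium, bone and marrow, and in such tissue fewer cells of a type and less RNA per cell cannot be told apart. Skeletal muscle RNA was present too, with summed markers from 784987 (MSC replicate 1) to 3.21e+06 (STING replicate 2) normalized counts. Marker sums for bone and for synovial fibroblasts had a positive r with every AP-1 gene within groups. For the summed bone markers (for example Col1a1 and Bglap2) the r values over 20 joints ran from 0.53 (Maff) to 0.84 (Junb), with 0.71 for Fos. For the synovial fibroblast markers (such as Prg4 and Pdgfra) they ran from 0.22 (Fosl2) to 0.80 (Jund). The erythroid markers went the other way, from -0.90 (Jun) to -0.14 (Fosl2), and so did the neutrophil markers, from -0.70 (Jun) to -0.00 (Fosl2). Among 112 relations of the 8 genes with 13 marker or stress lists and with total reads, 15 had an adjusted p of at most 0.05 (permutation within groups), of which 4 were with synovial fibroblast, 4 with bone, 3 with erythroid and 2 with neutrophil markers. Cartilage, endothelial, skeletal muscle, adipocyte and macrophage markers had 0 such relations. Cartilage r values ran from 0.26 (Jun) to 0.56 (Junb), and skeletal muscle r values from -0.22 (Fosl2) to 0.57 (Jun).

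Of these 15 relations, counted by Pearson's r (12 by Spearman's rho), 3 had the smallest adjusted permutation p for r, 0.000373, set by the smallest p that the permutations can give. They were Jun with erythroid markers (r = -0.90), Jund with synovial fibroblast markers (r = 0.80) and Maff with synovial fibroblast markers (r = 0.74). Without the 2 farthest joints r was -0.90, 0.79 and 0.75. Spearman's rho was -0.88 for Jun and 0.88 for Jund, each with an adjusted permutation p of 0.00112, and 0.82 for Maff with 0.00224. Junb with bone markers had r = 0.84 (adjusted permutation p = 0.00532), rho = 0.83 (adjusted permutation p = 0.00538) and r = 0.81 without the 2 farthest joints. Fos with bone markers had r = 0.71 (adjusted permutation p = 0.0190), rho = 0.65 (adjusted permutation p = 0.0440) and r = 0.66 without them. The bone sum was highest in control replicates 3 (564778 normalized counts) and 4 (536664) and in MSC replicate 2 (422011), and it lay between 125417 and 226180.0 in the STING joints. Control replicates 3 and 4 and MSC replicate 2 were also among the highest joints for Junb, at 4155, 5126 and 4957. MSC replicate 4 had the lowest synovial sum of all, 31130.3, beside 534994 in MSC replicate 2.

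**Figure D4:**
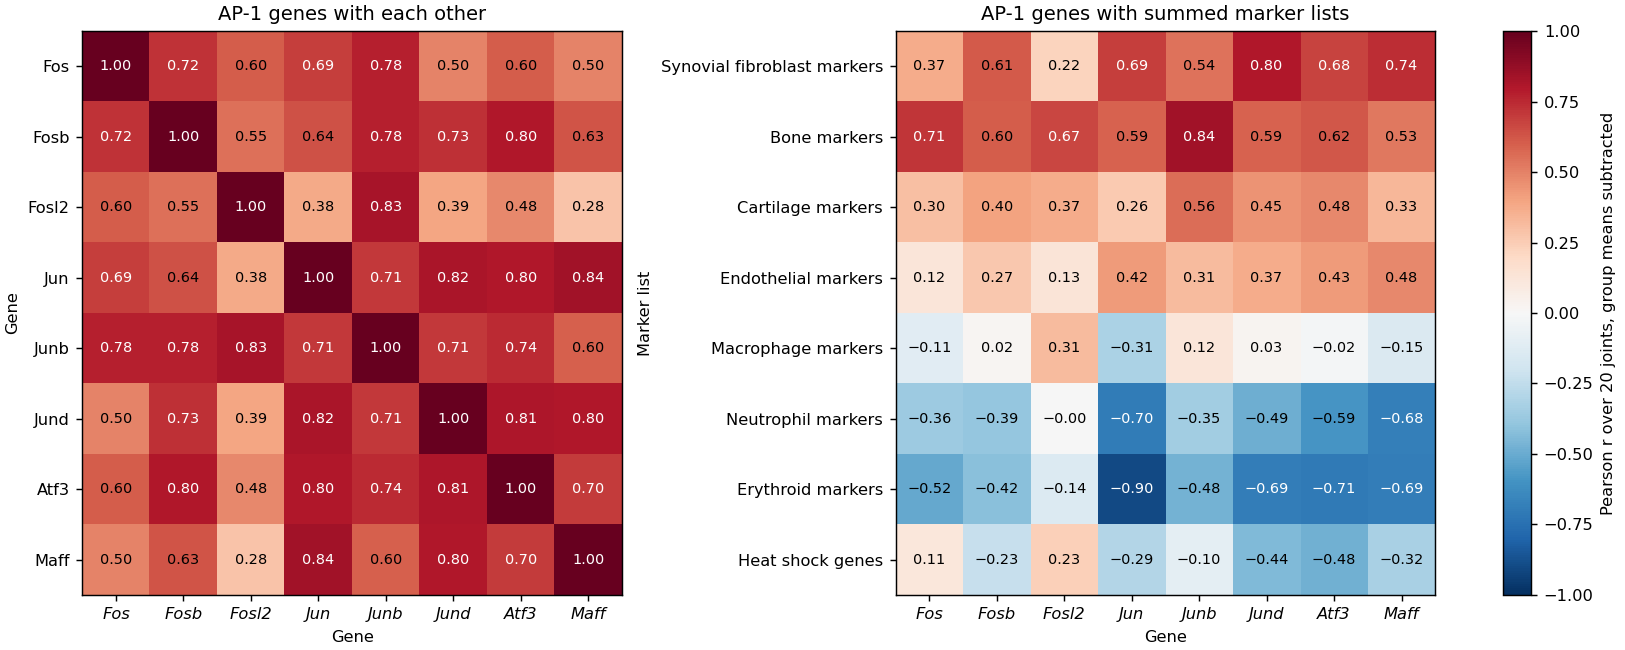
Pearson r over 20 joints after subtraction of group means, among the 8 AP-1 genes (left) and between each gene and the log2 sum of 8 marker or stress lists (right), on a colour scale from -1 to 1. All pairs of members are positive (0.28 to 0.84), while marrow lists (erythroid, neutrophil) are negative and bone and synovial lists positive.

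With the log2 bone and erythroid sums as covariates, a fit chosen after these relations were seen, the log2 fold change of Fos was -1.23 for STING against MSC and -0.99 for STING against control, below the 2-fold threshold in the latter. Fosb had -1.82 for STING against MSC and -0.31 for STING against control, and Junb had -0.51 and -0.32. In the MSC joints Fosl2 and Atf3 had log2 fold changes of 0.80 and 0.90 against control in this fit, and both had an FDR of at most 0.05, which 2.76% of all genes had. The fit uses the same joints that chose the genes, so these 2 calls support nothing. The sums come from the same libraries as the genes, and their part in the group differences was not otherwise tested.

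Other genes around AP-1 were taken from 4 lists written from general knowledge, with earlier results of these joints known. Counts from any of the 4 lists are therefore not independent evidence. Of 26 measured partners and relatives (of 28 listed) 0 passed the threshold in any comparison, and of 36 measured upstream kinases, phosphatases and serum response genes (of 37) 0 did either. By the unadjusted p alone (at most 0.05), 3 partners were higher in MSC and 1 each in TLR and in STING than in control joints, where 5.64%, 2.68% and 6.54% of all genes were higher. Jdp2, a repressor that pairs with Jun, had log2 fold changes between -0.22 and 0.25. Batf, a partner in lymphocytes, had 0.44 (SE 0.14, FDR 0.33) in MSC against control. Mapk8, which encodes the kinase JNK1, and Srf, which binds the CArG box, had log2 fold changes between -0.10 and 0.14 in all 6 comparisons. Dusp1, a phosphatase of these kinases and an immediate-early gene itself, had -0.60 (SE 0.18, FDR 0.29) for STING against control and -0.57 (FDR 0.81) for STING against MSC.

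Of 35 measured immediate-early genes outside the family (of 36), 11 were higher and 0 lower by an unadjusted p of 0.05 or less in MSC against control, while 9 were lower and 1 higher in STING against control. In STING against MSC 16 were lower and 0 higher, and in TLR against MSC 9 were lower and 0 higher. The smallest FDR of the list in any comparison was 0.098, so none passed an FDR of 0.05 in limma. Median log2 fold changes of the list were 0.16 in MSC against control, -0.17 in STING against control and -0.32 in STING against MSC. Among all genes 5.64% were higher and 2.91% lower in MSC against control, and 6.54% higher and 5.69% lower in STING against control. In STING against MSC 2.77% were higher and 2.17% lower, and in TLR against MSC 1.89% and 1.99%. For TLR against control the list had 2 higher and 4 lower genes, beside 2.68% and 0.906% of all genes. For STING against TLR it had 0 higher and 1 lower, beside 0.784% and 1.78%. The list was written with earlier results of these joints known, so its direction is not independent evidence.

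Egr1, a zinc finger factor, had 2692, 2695, 4315, 5559 and 2082 normalized counts in control and 1425, 840.3, 1614, 1013 and 604 in STING joints, groups that did not overlap. Its log2 fold change was -1.65 (SE 0.38, FDR 0.26) for STING against control, -1.02 for STING against MSC and -1.005 for TLR against control. Ccn1, a matricellular gene, had -1.40 (SE 0.36, FDR 0.27) for STING against control and -1.07 for STING against MSC. Arc had -1.26 (FDR 0.33) and -1.23 for these comparisons, and Egr2 had -1.12 (FDR 0.32) and -1.03. Nr4a3, a nuclear receptor, had the opposite sign in the comparisons with control. It had 48.3 to 133 normalized counts in control and 123 to 377 in MSC joints, a log2 fold change of 1.41 (SE 0.49, FDR 0.35), and it had 1.04 in TLR and 0.73 in STING against control. For STING against MSC it had -0.69, the same sign as the others. Nr4a1 lay between -0.47 and 0.25 and Ier2 between -0.30 and 0.10 over the 6 comparisons. Egr1, Ccn1, Arc and Egr2 thus had their lowest means in the STING joints, like Fos, while Nr4a3 had its lowest mean in control joints.

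Among 35 measured target genes (of 41), 7 were lower and 0 higher in STING against control by an unadjusted p of 0.05 or less, beside 5.69% lower and 6.54% higher among all genes. Of the 7, 6 were past the 2-fold threshold, beside 1.78% of all genes that passed as lower. Of these 6, the 3 with the smallest p were Mmp14, a membrane collagenase activator, with -1.43 (SE 0.48, FDR 0.32), Timp1, a metalloproteinase inhibitor, with -2.08 (SE 0.77, FDR 0.35), and Adamts4, an aggrecanase, with -1.79 (SE 0.72, FDR 0.37). Mmp3, stromelysin, had -1.77 (SE 0.75, FDR 0.38). Its values were 323, 829, 851, 1275 and 496 in control and 198, 262, 199, 295 and 99.8 in STING joints, while the MSC joints ran from 68.4 to 2622. Mmp13, collagenase, had -0.88 (SE 0.35, FDR 0.37), and Il6, a cytokine, had 0.02. In STING against MSC 2 targets were lower by that p and 0 passed the threshold. The control means of Mmp14, Timp1 and Adamts4 came largely from replicates 3 and 4, which were also the joints with the highest bone marker sums. Timp1 had 8811 and 11159 there against 1099 to 3008 in the other control joints. Mmp14 had 21733 and 22999 there against 4968 to 9471. Without control replicate 3 or 4, the number of listed genes past the threshold in STING against control was 4 in place of 10.

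**Figure D5:**
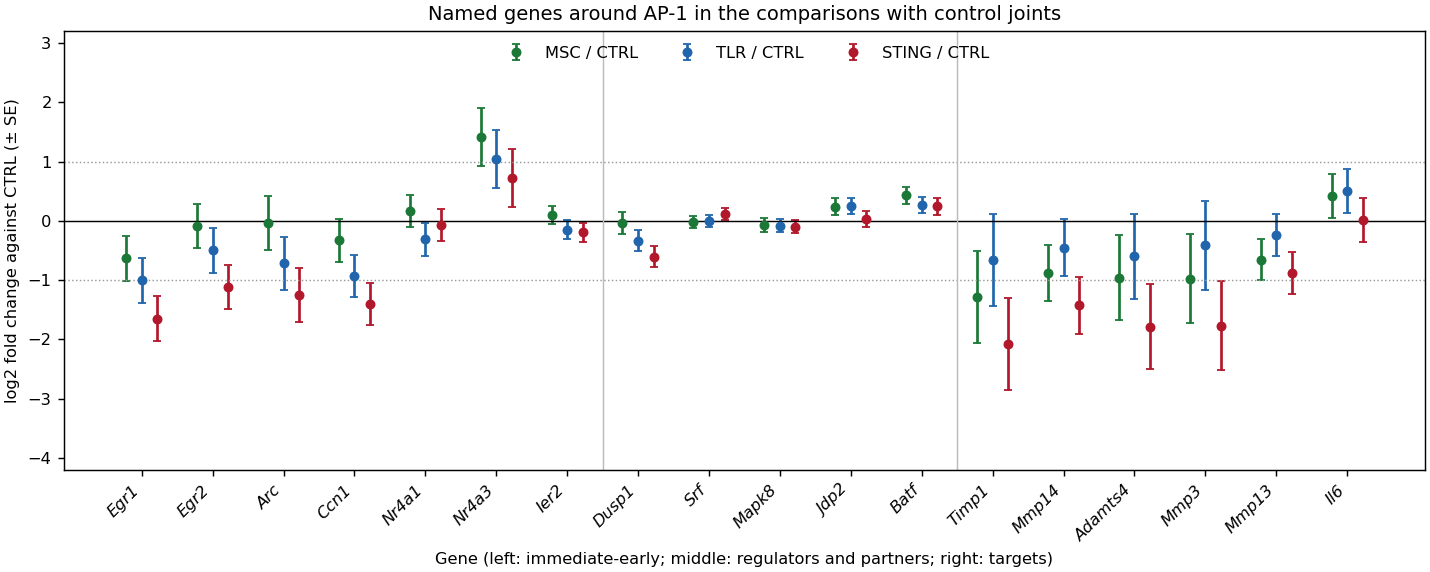
log2 fold changes (points) with SE (bars) against control joints for 18 genes of the other lists, in MSC (green), TLR (blue) and STING joints (red), with dotted lines at a 2-fold difference. Egr1, Egr2, Arc, Ccn1 and 4 of the 6 targets shown lie below the lower dotted line in STING joints, while Srf, Mapk8 and Jdp2 lie between -0.10 and 0.25 and Batf reaches 0.44 in MSC joints.

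Heat shock and neutrophil genes were counted in the same way, beside 5.64% of all genes higher in MSC, 2.68% in TLR and 6.54% in STING than in control joints. Of 10 heat shock genes 6 were higher in MSC than in control joints by an unadjusted p of 0.05 or less (summed range 42576 to 68330.2 against 40576 to 45252 normalized counts), but MSC replicate 2, with the highest Fosb, had the lowest sum of its group. Of 10 neutrophil markers 7 were higher in MSC, 1 in TLR and 8 in STING than in control joints, with MSC and STING sums from 557622 to 953542 and from 558356 to 868303 against 390634 to 698395. By the same p, 6 of 10 endothelial markers were lower in STING and 2 in TLR than in control joints, and 0 were higher. Among all genes 5.69% were lower in STING and 0.906% in TLR. Of 10 synovial fibroblast markers 2 were lower in STING and 2 higher in TLR than in control joints. The 2 lower ones were past the 2-fold threshold, beside 1.78% of all genes that passed as lower. The part of these markers in the AP-1 values was not tested.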

How the data were processed

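The authors deposited 1 table of normalized counts, a signal made from the read counts of each joint by scaling with a median-ratio size factor. Per the labels and the methods of the study, polyA RNA was sequenced after TruSeq library preparation, reads were aligned with STAR 2.7.3a to GRCm39 and counted per gene with HT-seq on the Ensembl annotation, and DESeq2 was named for differential expression. Whether counting used strand is not given in the sources used here. From 99.8% to 99.9% of the values above 0 in a joint were whole multiples of 1 read (tolerance 0.1), and 100% of those below 1000 were, so whole reads were recovered. Counting error is small at these depths, and the number of joints sets the precision. Groups and replicate numbers came from the sample labels, and the replicates are separate mice.

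The main test was limma (version 3.58.1, R 4.3.3, trend option) on log2(normalized count + 1) over 20 joints and 4 groups, fitted on 14793 genes, with a minimum mean of 5 that removed 0 genes and Benjamini-Hochberg adjustment over all genes. It was used on the deposited normalized values in place of DESeq2, the count test that the study names, which was run on the recovered reads. At an FDR of at most 0.05 DESeq2 called 105 genes in MSC against control, where limma called 1. In STING against control DESeq2 called 85 and limma 0. Fold changes on this scale understate those of low genes. The members, the gene lists and the alternatives were chosen with earlier results of these data known. Named genes were all 8 members, up to 3 genes per list and comparison with the smallest p past the threshold, 11 measured genes named in every case (Jdp2, Batf, Mapk8, Srf, Dusp1, Egr1, Nr4a1, Ier2, Mmp3, Mmp13 and Il6), and the 3 genes most like each member. Levels per kb used the length of the canonical transcript. The relations with marker sums and the fit with covariates were added after the first results were seen. Alternatives were pseudocounts of 0.5 and 5, minimum means of 0 and 20, a fit to only the compared pair of groups, quantile normalization, leaving out single joints, and a block for the replicate number. On the recovered reads edgeR 4.0.16 (quasi-likelihood) and DESeq2 1.42.0 were run. The scripts were tested on simulated counts.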

Additional observations from a re-analysis of the deposited data

Results flagged for a closer look

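In 3 of the 32 groups of 5 joints (8 genes in 4 groups) the highest joint stood apart from the others by Dixon's test, whose critical value for 5 values is 0.71. For normal values, chance gives about 1 in 20 groups with a joint apart at either end. The values here were counts without log, and the 32 groups share the same 20 joints, so that rate does not carry over. Fosb had 2530.7 normalized counts in MSC replicate 2, where the gap to the next joint was 0.739 of the group's range. Fosl2 had 4816 in TLR replicate 5, with a gap of 0.829 of the range. Maff had 275 in control replicate 4, with a gap of 0.922 of the range. MSC replicate 2 and control replicate 4 were among the 3 joints with the highest summed bone markers (422011 and 536664 normalized counts), and TLR replicate 5 had the highest sum of its group (328999). The part of these sums in the high values was not tested.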

How the results depend on the processing

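Of the 48 log2 fold changes of the members under 21 alternatives (1008 values), 1007 moved by less than the residual SD. The exception was Junb in STING against control, at -0.32 with bone and erythroid marker sums as covariates. The minimum means, the fit to only the compared groups and the replicate block leave a log2 fold change as it is. Their values could not move, and DESeq2 without its cutoffs repeats the fold changes of DESeq2. The residual SD is also wider than the SE of a fold change, so a shift below it can still be large. The sign turned in 41 values, all of them of fold changes whose own size was at most 0.21, and in 0 of 399 values of fold changes of at least 0.5 in size. For STING against MSC the count of members past the threshold was 2, Fos and Fosb, under every alternative run. For STING against TLR it was 0 under every one. For MSC against control, where it was 0, it was 1 under quantile normalization, edgeR, DESeq2 with and without its Cook cutoff and independent filtering (the latter chosen after the data were seen) and the marker covariates, and 0 to 2 with a joint left out. For TLR against control it was 0 to 1 with a joint left out. For STING against control it was 2 with only the 2 groups compared and 0 with the covariates. For TLR against MSC it was 0 with only the 2 groups compared and 0 to 2 with a joint left out.

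The count of listed partner, regulator, immediate-early and target genes past the threshold was 1 for MSC against control, 2 for TLR against control, 10 for STING against control, 0 for TLR against MSC, 5 for STING against MSC and 0 for STING against TLR. With the marker covariates these became 2, 1, 2, 1, 0 and 0. edgeR and DESeq2 gave 1 for TLR against control, edgeR 6 and DESeq2 7 for STING against TLR, and DESeq2 9 for STING against MSC, each with the same value without its cutoffs. With only the 2 groups compared STING against TLR gave 4. With a joint left out the counts ran, in the order above, from 1 to 7, 1 to 4, 4 to 14, 0 to 5, 1 to 6 and 0 to 5. The 7 for MSC against control, the 5 for TLR against MSC and the 1 for STING against MSC were those without MSC replicate 2, and the 4 for STING against control was that without control replicate 3 or 4. The median r between members was 0.65 without the 2 farthest joints and 0.68 by Spearman's rho. The causes were not tested.

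Same-numbered joints are different mice, and the correlations of their deviations from the group means were of both signs in every comparison, from -0.66 to 0.46 in MSC against control, so the numbers do not pair the joints. With the replicate block the count of members past the threshold was 1 for STING against control and 2 for STING against MSC, as without it.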
